A study of Homo sapiens with 30 samples.

Results

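The distal intergenic peaks of hNABP2 are the regions bound in chromatin immunoprecipitation (ChIP-seq) that the authors' annotation placed outside genes and away from promoters. They were taken as the rows of the annotated peak table of ChIP repeat 1 whose class reads distal intergenic, which gave 368 of 10055 annotated peaks (3.66%, 95% exact Clopper-Pearson interval 3.30 to 4.05%). The same class held 60 of 2816 annotated peaks in ChIP repeat 2 (2.13%, interval 1.63 to 2.73%). All libraries came from HT1080, a human fibrosarcoma cell line, at passages 10 to 15, and no cells received a treatment. The ChIP libraries were made from wild-type (WT) nuclei, 2 with a home-made antibody to hNABP2 and 2 with rabbit IgG, whose libraries were not analysed here. The run-on libraries (GRO-seq, in which engaged polymerases extend their transcripts in isolated nuclei) came from cells labelled hNABP2 KO, hNABP1 KO and WT, each with nucleotides (NTP) and without them, 3 repeats per group. The DRIP-seq libraries used here, in which the S9.6 antibody captures RNA:DNA hybrids, came from cells labelled hNABP2 KO and from WT cells, without RNase H, 2 repeats per group. The labels do not say how the knockouts were made or whether a line was 1 clone.

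hNABP2, also called hSSB1, is a single-stranded DNA binding protein that works in the SOSS complex with INTS3 and INIP, and it is known for its part in the response to DNA breaks. Its paralogue hNABP1, or hSSB2, can take its place in that complex. Single-stranded DNA is exposed where polymerases melt the helix, and open regions outside promoters include enhancers, where short unstable transcripts are made, and starts of long non-coding RNAs.

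Sequence was at hand for the distal intergenic peaks that overlapped a RefSeq promoter window, the 300 bases from 250 before to 50 after an annotated gene start in GRCh38.p14, the assembly known as hg38. Windows of 20 genes overlapped 21 of the 368 peaks. The 5 below are shown because the deposited annotation called their peaks distal intergenic while RefSeq puts a gene start in or beside the peak; the first 4 peaks were also overlapped by repeat 2, and the last one was overlapped by run-on peaks of 3 libraries. Capitals mark the bases inside the hNABP2 peak, each window runs 5′ to 3′ on the gene's strand, and LOC105370869 and LOC105374777 are long non-coding RNA genes.
CHRM4: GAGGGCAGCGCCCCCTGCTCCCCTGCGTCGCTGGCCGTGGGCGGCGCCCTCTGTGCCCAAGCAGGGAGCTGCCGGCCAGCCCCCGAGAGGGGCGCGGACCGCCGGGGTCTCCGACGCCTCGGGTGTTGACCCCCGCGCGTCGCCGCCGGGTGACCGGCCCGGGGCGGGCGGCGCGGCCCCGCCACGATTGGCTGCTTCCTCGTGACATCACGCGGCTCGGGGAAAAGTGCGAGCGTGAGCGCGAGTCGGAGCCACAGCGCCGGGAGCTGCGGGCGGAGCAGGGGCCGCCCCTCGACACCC
PLXNA1: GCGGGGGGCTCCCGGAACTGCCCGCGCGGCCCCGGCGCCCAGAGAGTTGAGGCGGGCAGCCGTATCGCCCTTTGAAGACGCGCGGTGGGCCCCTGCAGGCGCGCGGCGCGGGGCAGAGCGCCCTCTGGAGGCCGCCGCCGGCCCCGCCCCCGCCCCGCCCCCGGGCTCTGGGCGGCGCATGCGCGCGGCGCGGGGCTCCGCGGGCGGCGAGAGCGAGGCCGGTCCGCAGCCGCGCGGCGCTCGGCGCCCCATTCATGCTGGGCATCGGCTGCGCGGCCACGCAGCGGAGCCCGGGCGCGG
ELFN1: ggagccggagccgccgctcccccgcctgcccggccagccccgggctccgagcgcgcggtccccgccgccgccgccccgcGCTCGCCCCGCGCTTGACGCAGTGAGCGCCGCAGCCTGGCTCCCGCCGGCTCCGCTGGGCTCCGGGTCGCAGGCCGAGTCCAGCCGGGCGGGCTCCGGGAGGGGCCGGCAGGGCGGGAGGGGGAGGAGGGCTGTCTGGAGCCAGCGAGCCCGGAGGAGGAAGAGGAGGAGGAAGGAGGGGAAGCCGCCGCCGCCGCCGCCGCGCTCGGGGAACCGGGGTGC
LOC105370869: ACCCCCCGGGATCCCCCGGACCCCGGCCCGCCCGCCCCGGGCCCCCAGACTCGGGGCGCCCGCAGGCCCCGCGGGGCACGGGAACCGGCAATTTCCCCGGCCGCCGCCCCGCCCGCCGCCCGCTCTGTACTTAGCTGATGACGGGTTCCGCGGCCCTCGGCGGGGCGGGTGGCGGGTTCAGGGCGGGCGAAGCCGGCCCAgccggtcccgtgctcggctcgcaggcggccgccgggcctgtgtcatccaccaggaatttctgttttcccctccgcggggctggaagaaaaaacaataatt
LOC105374777: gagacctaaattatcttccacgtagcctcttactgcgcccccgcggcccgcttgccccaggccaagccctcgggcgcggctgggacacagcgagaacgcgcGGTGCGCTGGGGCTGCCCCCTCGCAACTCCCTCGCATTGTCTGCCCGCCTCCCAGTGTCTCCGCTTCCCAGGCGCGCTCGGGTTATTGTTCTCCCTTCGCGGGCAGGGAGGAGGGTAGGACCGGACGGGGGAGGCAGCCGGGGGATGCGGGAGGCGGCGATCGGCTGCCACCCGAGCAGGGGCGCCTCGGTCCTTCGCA

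The CHRM4 window lies on the minus strand at chr11:46391727-46392026, and all 300 of its bases were inside the peak. The PLXNA1 window, on the plus strand at chr3:126982865-126983164, was inside its peak over its whole length as well. For ELFN1 (plus strand, chr7:1665814-1666113) 221 bases were inside, for LOC105370869 (minus strand, chr15:66842420-66842719) 200 bases, and for LOC105374777 (minus strand, chr2:64768148-64768447) 199 bases. These windows were rich in G and C: 78.3% of bases at CHRM4, 83.0% at PLXNA1, 82.0% at ELFN1, 74.7% at LOC105370869 and 70.7% at LOC105374777. Over the 20 windows the share ranged from 51.7 to 83.3%, with a median of 73.5%, against 70.0% over the windows of 7142 genes at promoter peaks and 58.3% over those of 27305 genes. The observed over expected ratio of CpG had a median of 0.879 in the 20 windows, 0.901 in the windows at promoter peaks and 0.580 over all genes.

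Short motifs were looked for on both strands of the same windows. The SP/KLF box GGGCGG was present in 15 of the 20 windows (75%), in 83.5% of the windows at promoter peaks and in 44.6% of all promoter windows. A G-quadruplex pattern, 4 runs of 3 or more G with 1 to 7 bases between runs, was found in 9 of 20 (45%), against 42.7% at promoter peaks and 24.1% over all. The AP-1 motif TGANTCA was present in 2 windows (10%; 3.22% at promoter peaks and 7.76% over all). The NF-Y box CCAAT was in 3 windows (15%), while the windows at promoter peaks held it in 32.4% and all windows in 35.7%. The ETS motif CCGGAAG was in 3 windows (15%; 20.7% at promoter peaks and 10.7% over all), the E-box CACGTG in 1 (5%; 11.7% and 7.43%) and the NRF1 core in 2 (10%; 19.8% and 8.78%). TEAD (GGAATG), CRE (TGACGTCA), the CTCF core and a tandem telomere repeat had no match in the 20 windows, whereas 14.05%, 1.98%, 2.49% and 0.00732% of all promoter windows held them, and 8.13%, 3.56%, 2.98% and 0% of the windows at promoter peaks. With 20 windows, 1 window moves a share by 5 percentage points, and a match is a description of letters, not a binding site. The SP/KLF box and the AP-1 motif do not overlap each other in their letters, but SP/KLF boxes can lie inside a G-quadruplex pattern.

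The deposited table gives a fold, the height of a peak over local background as the peak caller scored it, and a q-value as −log10 q. Distal intergenic peaks had folds from 1.79 to 15.7, with a median of 3.58 (95% order-statistic interval 3.54 to 3.85) and quartiles of 2.82 and 4.76. Promoter peaks, those within 1 kb of a start, had a median fold of 3.16 (n = 8981), intron peaks 4.28 (n = 337) and all annotated peaks 3.21. By −log10 q the order was different: the distal intergenic median was 6.21 (interval 5.39 to 7.44), between 12.8 for promoter peaks and 3.59 for intron peaks, and beside 12.1 over all annotated peaks. Of the 368 distal intergenic peaks, 112 (30.4%, interval 25.8 to 35.4%) were at or above the median −log10 q of all annotated peaks. They were also narrow, with a median width of 246 bp, against 380 bp for promoter peaks, 214 bp for intron peaks and 362 bp over all classes. In repeat 2 the distal intergenic median fold was 5.84 (interval 5.01 to 6.97, n = 60), beside 5.87 for promoter peaks (n = 2658), and the median −log10 q was 4.25 (interval 3.58 to 6.44), beside 4.50. Both intervals there included the promoter median, so the higher fold and the lower −log10 q of distal intergenic peaks in repeat 1 were not seen in repeat 2; the median widths of 263.5 and 325 bp kept the order of repeat 1.

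Plotted as fold against −log10 q, the distal intergenic peaks fell into 2 bands, and the lower band held none of the peaks seen again in repeat 2. In the lower band a given fold went with a far smaller −log10 q, and many peaks had the very same values: 33 distal intergenic peaks shared a fold of 4.28 and −log10 q of 2.40, 28 shared 4.991 and 3.55, 17 shared 3.57 and 1.32, 12 shared 5.70 and 4.77, and 4 shared 6.42 and 6.04. The folds of these 5 sets stood 0.713 apart. Over all classes the most frequent pair of values occurred in 126 peaks. The band was drawn after the values had been seen, as the peaks whose −log10 p was at most 1.2 times that of a straight line, on log axes, through the 5 shared values. The highest ratio inside was 1.12 and the lowest outside was 1.24; 8 distal intergenic peaks lay between 1.2 and 2. Of the distal intergenic peaks 130 (35.3%, interval 30.4 to 40.4%) were in the lower band, against 105 promoter peaks (1.17%), 228 intron peaks (67.7%) and 535 of all annotated peaks (5.32%). Lower-band distal intergenic peaks had a median fold of 4.91, width of 199 bp and distance to the assigned start of 23980 bp, against 3.10, 281.5 bp and 10338 bp in the 238 other distal intergenic peaks. Fold entered the definition of the band, so the difference in fold is not a separate result, while width and distance did not enter it.

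**Figure D1:**
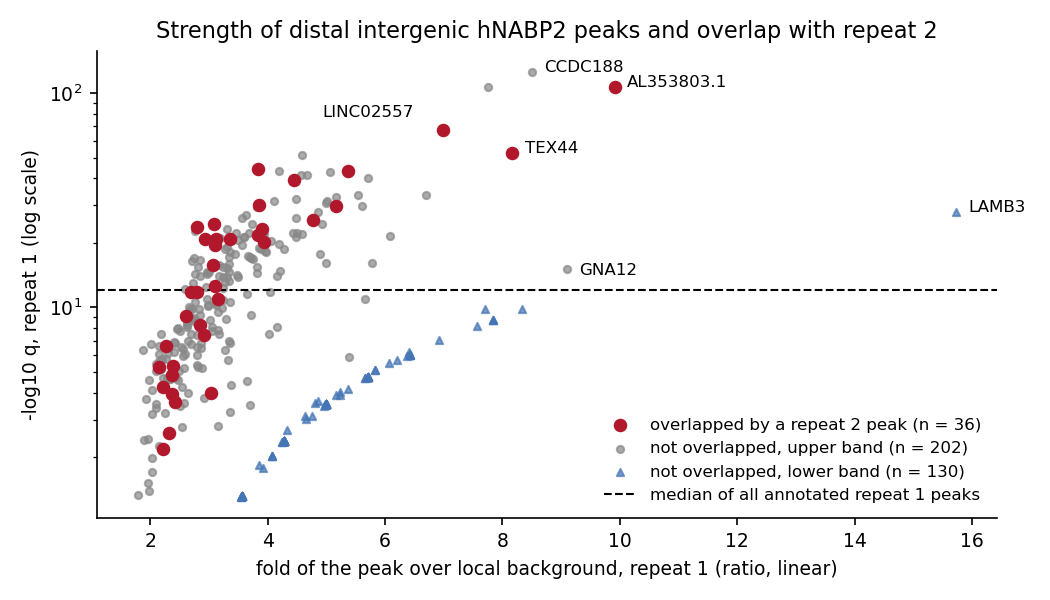
Each point is 1 of the 368 distal intergenic peaks of repeat 1, with its fold over local background on the x axis (linear) and −log10 q on the y axis (log scale); the dashed line is the median −log10 q of all annotated peaks, 12.1. Peaks overlapped by repeat 2 are large filled circles and all 36 lie in the upper band, while the 130 peaks of the lower band (triangles), LAMB3 among them, have none.

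The highest folds belonged to peaks at very different places. The highest, 15.7 with −log10 q of 28.0, was at chr1:209657193-209657612, 4768 bp upstream of LAMB3, which encodes the beta-3 subunit of a laminin of epithelial basement membranes; it was in the lower band and was not overlapped by repeat 2. Next came a peak of 822 bp at chr9:129413209-129414030, 24186 bp upstream of AL353803.1, a gene known only by a clone name. Its fold was 9.91 with −log10 q of 107 in repeat 1, and 4.97 with −log10 q of 3.62 in repeat 2. A peak at chr7:2874203-2874507, 29895 bp upstream of GNA12, a G protein alpha subunit, had a fold of 9.09 and was not overlapped by repeat 2. The highest −log10 q of the class, 125 at a fold of 8.49, was at chr22:20155345-20155663, 4290 bp upstream of CCDC188, and it too was not overlapped by repeat 2. The peak with the fourth fold among those not overlapped, 8.34 with −log10 q of 9.85, was assigned to AC100860.1, and the fifth fold, 7.84, was shared by 3 peaks, assigned to MICOS10P2 (chr17:64707109-64707418), FZD1, a receptor for Wnt ligands, and AC112715.1.

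Repeat 2 overlapped 36 of the 368 distal intergenic peaks by at least 1 bp (9.78%, interval 6.95 to 13.3%), beside 22.6 percent of all annotated repeat 1 peaks. For promoter peaks the share was 24.5% (interval 23.6 to 25.4%) and for intron peaks 3.86% (interval 2.07 to 6.51%), and the 3 intervals did not overlap. In the lower band 0 of 130 distal intergenic peaks were overlapped, which allows up to 2.80% by the exact interval, as were 0 of 535 over all classes. Outside it 36 of 238 distal intergenic peaks were overlapped (15.1%, interval 10.8 to 20.3%), against 24.7% of promoter, 11.9% of intron and 23.9% of all annotated peaks outside the band. The share increased with −log10 q: 4.10% below 4 (5 of 122), 6.59% from 4 to 8 (6 of 91), 9.59% from 8 to 16 (7 of 73) and 21.95% at 16 or more (18 of 82). Promoter peaks in the same ranges had 18.0%, 19.7%, 24.0% and 28.7%. At 16 or more the interval of the distal intergenic share, 13.6 to 32.5%, included the promoter share, and in the 3 lower ranges its upper bound was below the promoter share. These ranges did not match width, which had a median of 246 bp in distal intergenic and 380 bp in promoter peaks. The part of width in a 1 bp overlap was not tested. Peaks of 1 library are not replicates, and these intervals cover counting error only.

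**Figure D2:**
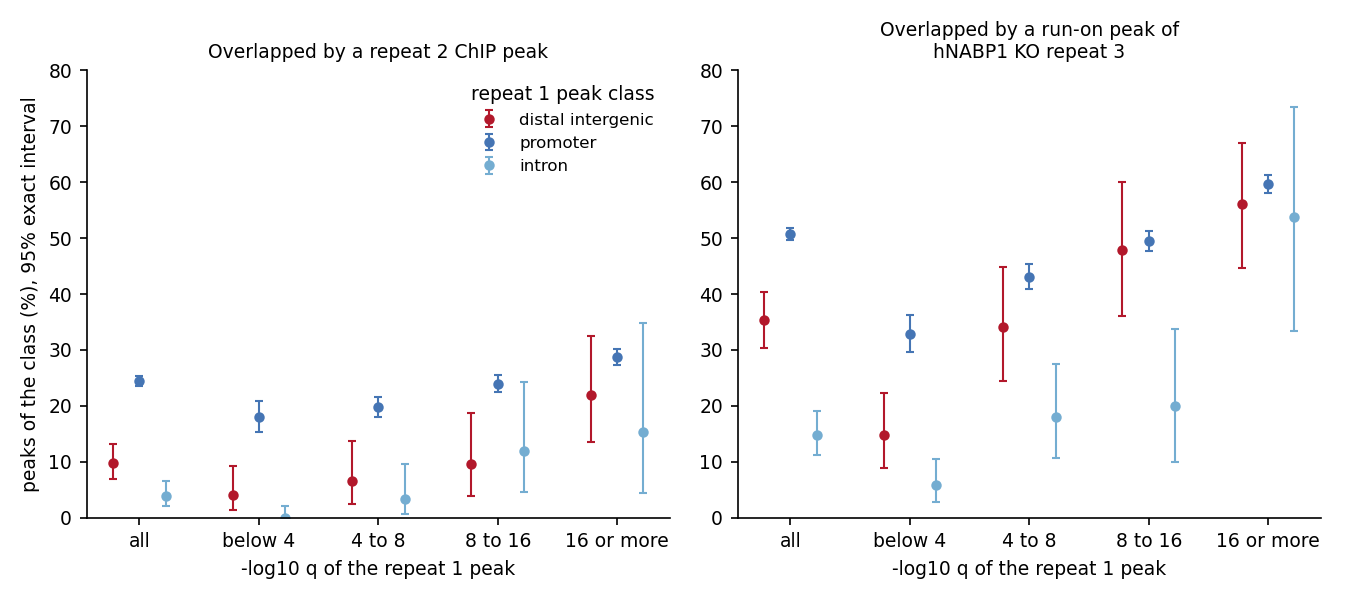
Shares of repeat 1 peaks (y axis, %) overlapped by a repeat 2 ChIP peak (left) and by a run-on peak of the library labelled hNABP1 KO, with NTP, repeat 3 (right), for distal intergenic, promoter and intron peaks, over all peaks of a class and within ranges of −log10 q (x axis); bars are 95% exact intervals. In both panels the distal intergenic shares climb with −log10 q, to 21.95% and 56.1% at 16 or more.

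The 36 distal intergenic peaks seen in both repeats were overlapped by 36 repeat 2 peaks, all of which carried the distal intergenic class in repeat 2 as well; 1 member, at PLXNA1, was overlapped by a pair of them, and 1 repeat 2 peak overlapped both members at CHRM4. From the side of repeat 2, 36 of its 60 distal intergenic peaks overlapped a repeat 1 peak (60.0%, interval 46.5 to 72.4%), and each of the 36 met a distal intergenic one. The same share was not computed over all repeat 2 peaks, so 60.0% cannot be set beside the whole list. The repeat 2 peak with the highest fold of the class, 12.4 at chr9:98933996-98934202, 8977 bp from COL15A1, a gene of a basement membrane collagen, had no partner in repeat 1. Across the 36 members the folds of the 2 repeats had a Pearson r of −0.07 and Spearman rho of 0.07; the peaks share their positions, and the lists were scored separately. The shared members were wider than the others, with a median of 341 bp (n = 36) against 237 bp (n = 332), and had a median −log10 q of 17.7 against 5.99. An overlap of at least 1 bp is met more easily by a wider peak, so the difference in width is not a separate result. The shared members lay upstream of the assigned start in 28 of 36 cases.

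Shared peaks with high folds, and some others chosen after their values were seen, are given here by the gene beside them. At chr19:12983455-12983786, 11822 bp upstream of NFIX, a transcription factor of the nuclear factor I family, the fold was 4.44 in repeat 1 and 11.3 in repeat 2, with −log10 q of 39.4 and 15.6. A wide peak of 1139 bp at chr3:194140844-194141982, assigned to the pseudogene RN7SL215P, stood 4696 bp from the RefSeq start of HES1, a repressor that acts downstream of Notch, and had folds of 3.95 and 6.09. The peak at chr14:68816275-68816906 was 20022 bp upstream of ZFP36L1, which directs the decay of AU-rich mRNAs, with folds of 3.85 and 9.15. Near CDKN2C, an inhibitor of the cyclin-dependent kinases that start the cell cycle, the peak at chr1:50977666-50978364 had folds of 2.61 and 9.24 and lay 7421 bp downstream of the assigned start. IER5, an immediate early response gene, had a shared peak 16438 bp downstream, at chr1:181105138-181105437, with folds of 3.10 and 8.35. Further shared peaks were assigned to TEX44 (folds 8.17 and 4.82), LINC02557 (6.99 and 4.33), HERC2P7 (5.17 and 9.44) and BLACE (3.90 and 7.46). SP8, a zinc finger transcription factor, and DNAH5, a dynein heavy chain of motile cilia, were assigned shared peaks 11005 and 67062 bp upstream, with repeat 1 folds of 3.16 and 3.83.

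By the rule of the class every peak lay at least about 3 kb from a start, and the distances are given as a description. Upstream of the assigned start were 229 peaks (62.2%, interval 57.1 to 67.2%) and downstream of it 139. The median distance was 13.3 kb (interval 11.6 to 15.6 kb), with quartiles of 7206 and 26030 bp. Within 5 kb lay 46 peaks, from 5 to 10 kb 99, from 10 to 50 kb 186, from 50 to 100 kb 29, and beyond 100 kb 8. The nearest were at ID2 (3017 bp downstream, fold 2.04), SREBF1 (3034 bp upstream, fold 3.31) and TAC4 (3057 bp upstream, fold 2.40); ID2 encodes an inhibitor of basic helix-loop-helix factors and SREBF1 a regulator of lipid synthesis genes. Just outside the class, by the same deposited distance, were promoter-class peaks at NANOS3 (2985 bp, fold 3.09), AL034346.1 (2976 bp, fold 2.42) and MIR6088 (2953 bp, fold 2.93). The farthest were 3599570 bp from LINC01691 at chr1:125180094-125180264, 385005 bp from AL122017.1 at chr6:81149740-81149908 and 172635 bp from AC092989.1 at chr3:135753073-135753256. None of the 8 peaks beyond 100 kb was overlapped by repeat 2, against 4 of 46 within 5 kb, 10 of 99 from 5 to 10 kb, 20 of 186 from 10 to 50 kb and 2 of 29 from 50 to 100 kb.

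**Figure D3:**
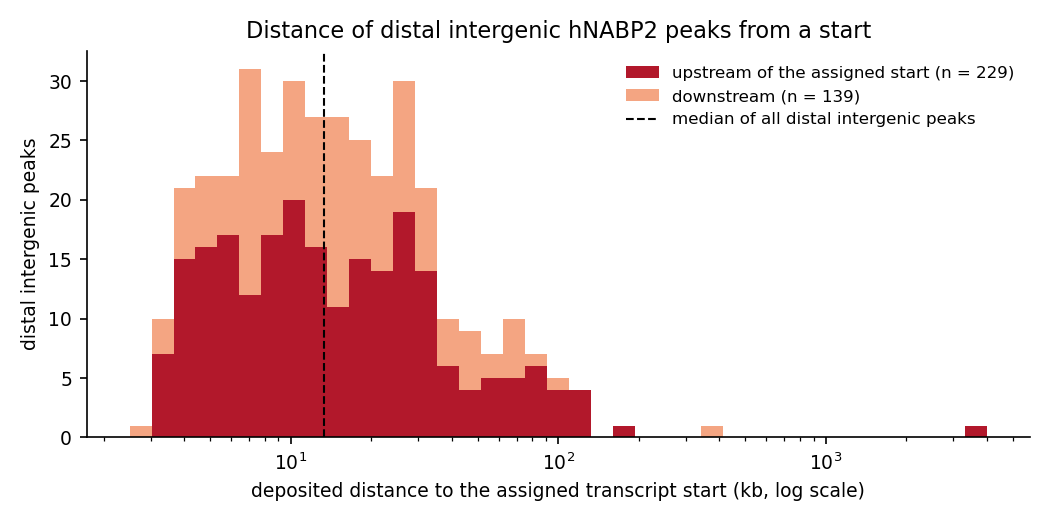
Histogram of the deposited distance from each of the 368 distal intergenic peaks to its assigned transcript start (x axis, kb, log scale; y axis, number of peaks), with peaks upstream and downstream of the start stacked. The dashed line is the median, 13.3 kb, and 3 peaks lie apart from the rest beyond 150 kb.

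The class depends on the gene models used, and RefSeq placed a part of it at a start. RefSeq starts were at hand for the chromosomes of 355 of the 368 peaks; the 13 on chromosome 8 had none in the table. Of the 355, 30 were within 1 kb of a RefSeq start (8.45%, interval 5.77 to 11.8%) and 17 had a start inside the peak; 23 of the 30 starts were of long non-coding RNAs and 7 of coding genes. The coding ones were CHRM4, an acetylcholine receptor of the muscarinic family, with 2 peaks, PLXNA1, a receptor for semaphorins, ELFN1, a synaptic adhesion protein, KLF12, a Krüppel-like transcription factor, BCLAF3 and LOC124903766. At CHRM4 the deposited distance was 4933 bp upstream, whereas the RefSeq start lay inside the peak at chr11:46391541-46392157, which had folds of 5.37 and 6.09 in the 2 repeats. At PLXNA1 (chr3:126982521-126983508, deposited distance 5086 bp) the folds were 2.79 and 7.51. Repeat 2 overlapped 7 of the 30 peaks near a RefSeq start (23.3%, interval 9.93 to 42.3%), against 28 of the 325 others (8.62%, interval 5.80 to 12.2%), and the intervals overlapped. By gene span 81 of the 368 peaks touched a RefSeq gene (22.01%), 57 of them a long non-coding one, while 91.2% of all annotated peaks did so. Of the 368, 282 touched no span and had no listed start within 1 kb. For peaks on chromosome 8 the span alone could be checked.

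Coding genes were assigned to a smaller share of distal intergenic peaks than of all annotated peaks. The 368 peaks had 336 distinct assigned genes. By RefSeq type 155 peaks (42.1%, interval 37.0 to 47.3%) had a coding gene assigned, against 86.5% of all annotated peaks, and 32 (8.70%) a long non-coding RNA, against 3.30%. For 116 peaks (31.5%, against 7.34% of all annotated peaks) the gene symbol was not in RefSeq, so the gene had no type here. Genes known only by a clone name, such as AL353803.1, were assigned to 107 peaks (29.1%), beside 5.73% over all classes, long intergenic non-coding RNAs named LINC to 25 (6.79%; 1.27% over all classes) and small structural RNAs or their pseudogenes to 24 (6.52%; 0.726% over all classes). Zinc finger genes named ZNF were assigned to 1 distal intergenic peak (0.272%; 2.19% over all classes). For 93 of the 368 peaks (25.3%) the assigned gene also had a promoter peak in repeat 1. The share was 36.5% for intron peaks and 93.0% for all annotated peaks, where promoter peaks count by definition. A promoter peak lay within 10 kb of 51 of the 368 distal intergenic peaks (13.9%, interval 10.5 to 17.8%), against 28.2% of all annotated peaks, and within 50 kb of 167 (45.4%, against 54.7%). Among the 51 with such a neighbour 2 were overlapped by repeat 2 (3.92%, interval 0.478 to 13.5%), among the 317 others 34 (10.7%, interval 7.54 to 14.7%), and the intervals overlapped.

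Most distal intergenic peaks stood alone. Joined when within 10 kb of one another, 46 peaks formed 21 clusters, of which 18 were pairs, 2 held 3 peaks and 1 held 4, and 322 peaks were in none. Clusters spanned 590 to 6216 bp, with a median of 1340 bp. Of the clustered peaks 8 of 46 were overlapped by repeat 2 (17.4%, interval 7.82 to 31.4%), of the single ones 28 of 322 (8.70%, interval 5.86 to 12.3%), with overlapping intervals.

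The cluster with 4 peaks was on chromosome 19, from 3638 to 8313 bp upstream of AC020916.1, at the host gene of the miR-23a cluster, which RefSeq calls MIR23AHG. Its peaks had folds of 2.44, 3.25, 4.77 and 2.65, in order of distance, and the third, at chr19:13850437-13850733, was overlapped by repeat 2 (fold 8.47). A promoter peak 0.085 kb from the start of the gene had a fold of 10.1 and was overlapped by repeat 2 too. Upstream of KLF9, a Krüppel-like transcription factor, 3 peaks lay within chr9:70418929-70420485 with folds of 2.80, 4.89 and 5.06; none was overlapped by repeat 2, and the promoter peak there had a fold of 3.40. Upstream of MKNK2, a kinase that phosphorylates the translation factor eIF4E, 3 peaks within chr19:2056064-2061898 had folds of 2.03, 3.71 and 4.28 and no overlap with repeat 2, beside a promoter peak with a fold of 12.1 that had one. In the KLF9 and MKNK2 clusters the fold increased with distance from the start, and in the first cluster it did not. Among the pairs was one between the neighbouring cytokine genes OSM and LIF, at chr22:30255954-30256219 (fold 3.85) and chr22:30257664-30258038 (fold 2.38), and another upstream of F2RL1, a protease-activated receptor, with folds of 2.82 and 3.27.

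**Figure D4:**
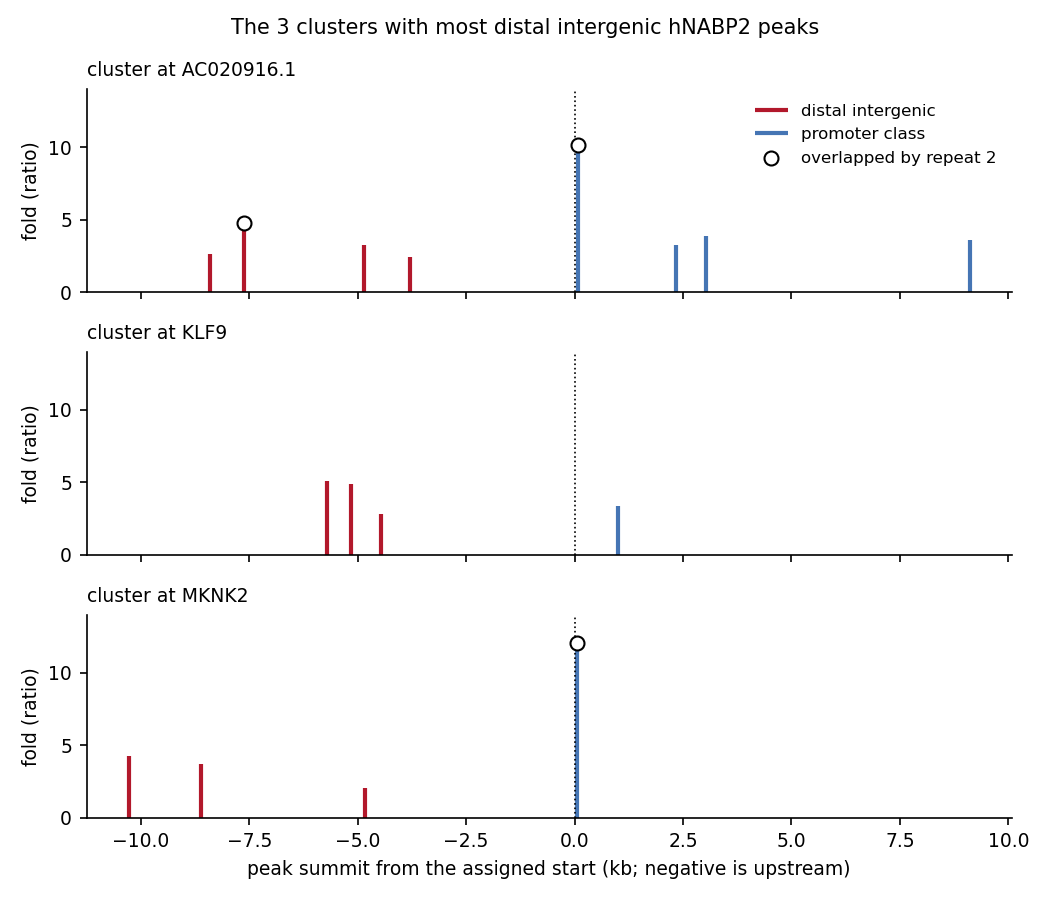
Repeat 1 peaks around the starts of AC020916.1, KLF9 and MKNK2, placed by the summit's distance from the assigned start (x axis, kb, negative upstream) with the fold as line height (y axis, ratio). Distal intergenic peaks are red and promoter-class peaks blue; open circles mark overlap with repeat 2, which 1 of the 10 distal intergenic peaks had.

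Distal intergenic peaks were found on chromosomes 1 to 22 and X. Chromosome 1 held 38, chromosome 3 held 35, chromosome 2 held 31, chromosomes 7 and 19 held 22 each, and chromosome 21 held 2; chromosome Y and mitochondrial DNA, with 2 and 11 annotated peaks, held none. As a share of the annotated peaks of a chromosome they ranged from 2.04% on chromosome 21 (interval 0.248 to 7.18%) to 5.70% on chromosome 22 (15 of 263, interval 3.23 to 9.23%). Chromosome 3 had 5.32% (interval 3.73 to 7.32%) and chromosome 12 had 2.08% (interval 1.00 to 3.80%). Among the 23 chromosomes the interval left out the 3.66% of the whole list at chromosome 3 alone.

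**Figure D5:**
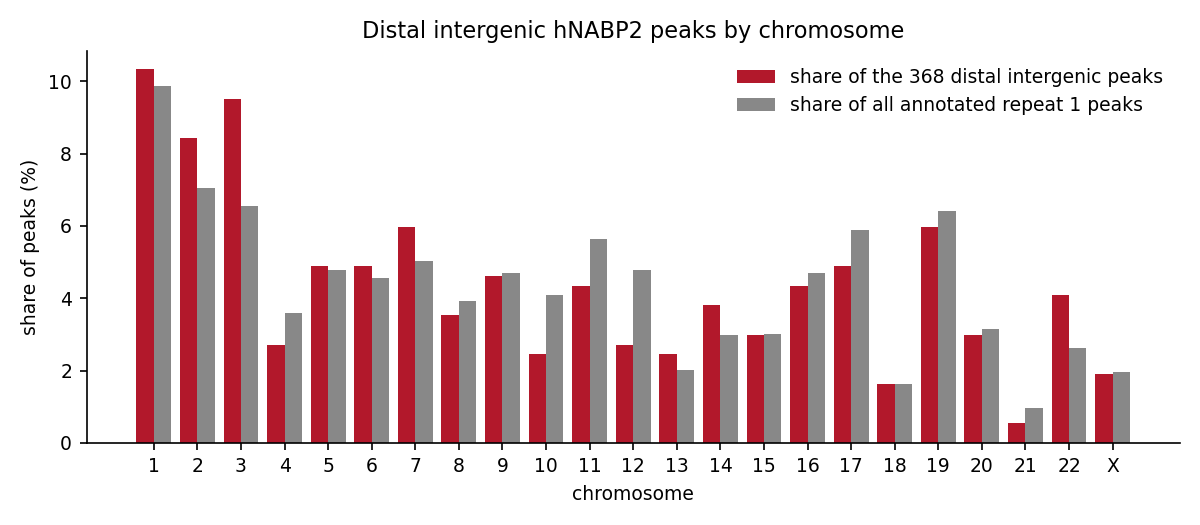
Share of the 368 distal intergenic peaks and of all 10055 annotated repeat 1 peaks on each chromosome (y axis, %). Chromosome 1 holds 10.3% of the distal intergenic and 9.86% of all annotated peaks, and chromosome 3 holds 9.51% and 6.54%.

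Run-on libraries with NTP were compared with the peaks next, since a peak list exists for each. At least 1 run-on list overlapped 135 of the 368 distal intergenic peaks (36.7%, interval 31.7 to 41.8%), against 50.7 percent of all annotated peaks. Nearly all of this came from 1 library, labelled hNABP1 KO, repeat 3, whose list held 9965 peaks while the 8 others held 94 to 518. That library alone overlapped 130 distal intergenic peaks (35.3%, interval 30.4 to 40.4%), beside 50.7% of promoter peaks, 14.8% of intron peaks and 48.1% of all annotated peaks. The share was 14.8% at −log10 q of the ChIP peak below 4, 34.1% from 4 to 8, 47.9% from 8 to 16 and 56.1% at 16 or more, and promoter peaks had 32.9%, 43.1%, 49.5% and 59.7%. Of the 36 peaks seen in both ChIP repeats it overlapped 23 (63.9%, interval 46.2 to 79.2%), of the 332 others 107 (32.2%, interval 27.2 to 37.5%), and the intervals did not overlap. The 36 also had a higher median −log10 q, 17.7 against 5.99, and this comparison was not matched for it. In the lower band of fold this library overlapped 13 of 130 distal intergenic peaks (10.0%), outside the band 117 of 238 (49.2%). Over all annotated peaks the shares were near these, 46 of 535 (8.60%) in the band and 4793 of 9520 (50.3%) outside. The run-on peaks of this library had a median fold of 5.67 at the 130 distal intergenic peaks, against 7.75 at promoter peaks and 4.73 over its whole list. The folds that stood out were 66.8 at PLXNA1, 58.2 at LINC01816 (chr2:70142049-70142969), 56.5 at DNAH5 (chr5:14011605-14011934) and 54.8 at chr13:30674037-30674387. Among the 10 highest ChIP folds with a run-on overlap, besides AL353803.1, TEX44, GNA12 and AC100860.1, were peaks at AC117465.1 (7.76, chr3:177359826-177360129), MAB21L3 (6.40), AL359732.1 (5.82), AC016546.1 (5.82), FLYWCH2 (5.71) and LINC01765 (5.70), all 6 of them overlapped by this library. The tenth place was tied: a peak at AC097528.1 had the same fold of 5.70 and was overlapped by this library too. Because the lists differ in length, no comparison of genotypes follows from these counts.

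The other 8 run-on lists overlapped 10 distal intergenic peaks (2.72%, interval 1.31 to 4.94%), against 6.99 percent of all annotated peaks. Of the lists labelled hNABP2 KO, repeat 1 overlapped 4, repeat 2 overlapped 1 and repeat 3 none; of those labelled hNABP1 KO, repeat 1 overlapped 1 and repeat 2 none; of the WT lists, repeat 1 overlapped 1, repeat 2 none and repeat 3 overlapped 4. At chr2:64767903-64768346, 16898 bp upstream of SERTAD2 and at the start of LOC105374777 shown above, the hNABP2 peak had a fold of 4.50 and was overlapped by run-on peaks of hNABP2 KO repeat 1 (fold 4.83) and hNABP1 KO repeat 1 (fold 2.95) besides the long list. At KLF9 a run-on peak of hNABP2 KO repeat 1 (fold 3.86) overlapped the member at chr9:70419655-70419879. A single run-on peak of that library (fold 4.69) covered both members of a pair at AC067960.1, chr2:121074636-121074802 and chr2:121074991-121075331. HERC2P7 had one of hNABP2 KO repeat 2 (fold 2.96). In WT libraries the overlapping run-on peaks were at GNA12 in repeat 1 (fold 5.88) and, in repeat 3, at PLXNA1 (8.28), AC093159.1 (5.33), AL008582.1 (4.66) and LINC01691 (4.36). Of these 10 members the ones at PLXNA1 and HERC2P7 were also overlapped by ChIP repeat 2.

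The peak lists of RNA:DNA hybrids were set beside the distal intergenic peaks in the same way. A DRIP list overlapped 2 of the 368 (0.543%, interval 0.0659 to 1.95%), against 0.537 percent of all annotated peaks, so the share was near that of the whole list. Both overlaps were with the list labelled hNABP2 KO, repeat 2 (167 peaks); hNABP2 KO repeat 1 (13 peaks), WT repeat 1 (173 peaks) and WT repeat 2 (107 peaks) overlapped none, which allows up to 0.997% of the members for each list. The first, at chr1:125180094-125180264, is the member farthest from a start and had a ChIP fold of 2.58 and a DRIP fold of 10.4; it was also overlapped by run-on peaks of WT repeat 3 and hNABP1 KO repeat 3. The second, at chr1:143263449-143263710, had a ChIP fold of 4.28 and a DRIP fold of 9.60. It was in the lower band and was also overlapped by a run-on peak of hNABP1 KO repeat 3 (fold 3.78). Neither was overlapped by ChIP repeat 2, and both lie on chromosome 1 at the edges of the centromere and the heterochromatin beside it.

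The nearest genes were looked up in the deposited table of run-on read counts per gene. Total counts were low, from 5883 to 164357 per library with NTP and from 5272 to 79429 without NTP, with repeat 3 the deepest of each group. Every marker of the 4 cell type lists had a count in the libraries with NTP: 10 of 10 of mesenchymal cells (0.164 to 3.23% of counts), 5 of 5 of epithelial cells (0.0156 to 0.284%), 4 of 4 of neural cells (at most 0.0294%) and 4 of 4 of leukocytes (at most 0.0112%). The mesenchymal and epithelial ranges overlapped. NABP2 had 4, 3 and 15 counts in hNABP2 KO-labelled libraries, 0, 0 and 6 under the hNABP1 KO label and 4, 0 and 8 in WT; NABP1 had 2, 0 and 9 counts, 0, 1 and 18, and 1, 0 and 19 in the same groups. Counts of nascent reads over a whole gene thus did not set the knockouts apart, and the libraries are named by their labels.

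Of the 336 assigned genes 153 were in the count table and 145 had a count in a library with NTP. Summed over the libraries with NTP, 109 of the 153 had 10 or more counts. The same held for 13447 of the 26473 genes listed in all. Together the 153 genes took 0.735, 0.821 and 0.877% of the counts in hNABP2 KO-labelled libraries with NTP, 0.820, 0.808 and 0.794% under the hNABP1 KO label and 0.684, 0.595 and 0.883% in WT. The means were 0.811 ± 0.071% for hNABP2 KO, 0.807 ± 0.013% for hNABP1 KO and 0.721 ± 0.148% for WT (SD, n = 3 each), and the knockout values lay within the WT range. Without NTP the means were 0.770 ± 0.099%, 0.585 ± 0.191% and 0.848 ± 0.143% in the same order, so the groups overlapped there as well. Set side by side within a repeat number, the shares with NTP were above WT in repeats 1 and 2 and below it in repeat 3 for both knockouts. Without NTP the share under the hNABP1 KO label was below WT in all 3 repeats (0.388 against 0.727%, 0.769 against 1.01% and 0.599 against 0.811%). The hNABP2 KO share without NTP was below WT in repeats 1 and 2 (0.683 against 0.727% and 0.750 against 1.01%) and above it in repeat 3 (0.878 against 0.811%). These differences were not tested. Genes assigned to any annotated peak, a far larger set of 8617 before matching to the count table, took 39.4 to 56.6% of counts in the libraries with NTP.

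The 10 assigned genes with most counts held 24.3% of the 3853 counts of the set, ranked by the sum over libraries with NTP, which weights the deeper repeat 3 libraries most. GPR132, a G protein-coupled receptor, had 4, 21 and 36 counts in hNABP2 KO-labelled libraries with NTP, 1, 28 and 25 under the hNABP1 KO label and 2, 16 and 29 in WT, high also in the shallow repeat 2 of each group. Without NTP its counts were close to these: 2, 29 and 34 in hNABP2 KO, 0, 10 and 35 in hNABP1 KO and 2, 15 and 17 in WT, which sum to 144 without NTP beside 162 with it. SMAD2, which carries signals of the TGF-beta family and whose shared peak lies 77161 bp upstream, had 2, 1 and 17 counts in hNABP2 KO, 2, 0 and 77 in hNABP1 KO and 0, 0 and 35 in WT. Its sum of 134 fell to 57 without hNABP1 KO repeat 3, and its rank to the sixth; GORASP2, DUT and NARF then left the first 10, and this order was looked at after seeing the data. For PKM, the pyruvate kinase of glycolysis, the counts were 14, 0 and 17 in hNABP2 KO, 5, 0 and 42 in hNABP1 KO and 3, 0 and 25 in WT, and its peak was in the lower band with a fold of 4.28. In each of these 3 genes the raw counts of the 3 groups overlapped, but library totals differed widely between repeats. Repeat 3 totals with NTP were 115923 in hNABP2 KO, 115528 in hNABP1 KO and 164357 in WT. Overlap of raw counts at such unequal depth cannot show whether the groups differ, and a difference was not tested. PLXNA1 had 1, 1 and 34 counts in hNABP2 KO, 4, 2 and 16 in hNABP1 KO and 4, 1 and 31 in WT. ZFP36L1 had 2, 0 and 16, then 5, 1 and 29, and 1, 0 and 24 in the same groups. The other 5 were GORASP2, DUT, NARF, RPL13 and LTBP4, with 70 to 77 counts over the libraries with NTP. LAMB3, at the peak with the highest fold, had 4, 1 and 17 counts in hNABP2 KO, 3, 0 and 6 in hNABP1 KO and 2, 1 and 13 in WT. CHRM4 had 0, 0 and 2 counts in hNABP2 KO, 0, 0 and 3 in hNABP1 KO and 1, 0 and 4 in WT, too few to show a difference at this depth.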

How the data were processed

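Per the submitters' processing notes, reads were handled with MACS2 2.2.1, Bowtie2 2.3.5, cutadapt 1.18 and SAMtools on hg38. Settings, controls of peak calling and the strand of counting were not given in the sources used here. The peak lists were deposited by the authors, 1 per library, with a fold (the ratio of a peak over local background) and −log10 p and q-values; distances to starts are the authors' own, per the file headers. The deposited run-on table holds raw counts per gene. The header line of the annotated ChIP table carries the values of its first peak, which is lost from the rows; 13 of 10068 called repeat 1 peaks have no annotation row. Deposited starts count from 0, and 1 was added.

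From these files overlaps were taken with bedtools 2.31.1 (1 bp or more), medians with order-statistic intervals and shares with exact Clopper-Pearson 95% intervals with scipy 1.17.1, after the code had been tested on simulated data. Intervals cover counting error only, as the labels mention no molecular identifiers. No test was run: peaks of 1 library share their source. Named peaks are the 10 highest folds shared with repeat 2 and the 5 highest not shared, all with a DRIP overlap, the 10 highest folds with a run-on overlap, the 3 largest clusters, the 3 nearest and 3 farthest from a start, and the 10 nearest genes with most counts; other peaks named, among them those with a run-on overlap outside the longest list and those at CDKN2C, IER5, SP8, DNAH5, OSM, LIF and F2RL1, were chosen after their values were seen. The members and lists were chosen with earlier results of these data known. Sequences, starts and gene types are from RefSeq, GRCh38.p14. Run-on libraries without NTP enter the counts only, and IgG and RNase H libraries were not used here. How far the 3 run-on repeats are independent cultures is not stated, so their SD may be technical.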

Additional observations from a re-analysis of the deposited data

How the results depend on the processing

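No paired analysis was possible because the results come from no test. The 3.66% share of distal intergenic peaks became 2.23% among peaks at or above the median −log10 q and 2.13% without repeat 1. The share overlapped by repeat 2, 9.78%, became 6.79% with 50% of the peak covered, 6.52% by summit, and 17.9% at or above the median −log10 q. The median fold of 3.58 was 5.84 without repeat 1, in a list scored separately. The 135 run-on overlaps became 131, 134 and 6 without repeats 1, 2 and 3, and 10 without the library labelled hNABP1 KO, repeat 3, an alternative chosen after seeing the data, so that 1 library decides the count. The 2 DRIP overlaps became 2 and 0 without repeats 1 and 2. The share near a RefSeq start was 1.97% with coding starts alone, and the median distance 18.6 kb by RefSeq starts, against 13.3 kb. Leaving out 1 WT library with NTP gave a share of counts of 0.640 to 0.784%. Cluster counts at 5 and 50 kb (44 and 67 peaks) and the share and fold outside RefSeq gene spans, also chosen after seeing the data, stayed within 1.5 times or the interval. Not run were GC content over whole peaks or around summits and peaks per Mb, as no genome was used here; leaving out a repeat gives no value for the overlap of the repeats. Depth limits the run-on counts of single genes, and the lower band of fold was drawn after the values were seen.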
